A study of Mus musculus with 36 samples.

Results

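Gene expression was compared between thymic cells of 6-month-old and 3-month-old mice in 5 sorted populations, all except fibroblasts. Every 6-month and every 3-month array of these populations was taken, 20 of the 36 arrays measured in all, with 10 arrays at each age. The populations were epithelial cells of the cortex (cTEC), epithelial cells of the medulla sorted as low (mTEClo) or high (mTEChi) for both CD80 and MHC class II, and Sirpa-negative and Sirpa-positive thymic dendritic cells (Sirpa- DC and Sirpa+ DC), with 2 arrays per population and age. All mice were wild-type C57BL/6J males, for which the labels give no treatment, and the series also holds arrays from 1-month-old mice and from fibroblasts at each age. The labels name 1 mouse per sample and the design text 2 mice per age. The same 2 animals may therefore underlie all 10 arrays of one age, and the p-values then measure only the spread between these samples. The labels give no array batch or scan date, so age and array batch cannot be told apart.

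The thymus makes T cells on a scaffold of epithelial cells, and it shrinks early in adult life. Cortical epithelium supports the selection of immature thymocytes, medullary epithelium displays tissue antigens, and thymic dendritic cells present antigens to the thymocytes that reach the medulla. Epithelial and dendritic cells differ in origin, the first arising from the pharyngeal endoderm and the second from blood-forming stem cells.

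Each sorted population had the highest mean log2 signal of its own marker list at both ages, though the lists were not exclusive. The mTEClo markers averaged 11.13 to 11.26 in mTEClo, against 9.95 to 10.50 in cTEC. The Sirpa- DC markers averaged 10.86 to 11.20 in Sirpa- DC, against 9.17 to 9.42 in Sirpa+ DC. The mean log2 signal of 10 cTEC markers was 10.48 and 11.04 in the 6-month cTEC arrays, against 10.33 and 10.26 in the 3-month ones, and 5.88 to 6.80 in the dendritic arrays. The mean of 4 markers of dendritic cells was 11.07 to 11.25 in the dendritic arrays at 6 months, against 10.74 to 10.86 at 3 months. In the epithelial arrays that mean was 6.69 to 7.83 at 6 months, against 6.30 to 7.18 at 3 months. The mean of 4 epithelial markers was 8.85 and 8.87 in Sirpa+ DC at 6 months, against 8.90 and 8.39 at 3 months, so that population carried some epithelial signal at both ages. The correlation of the 2 arrays of a group, across genes, was lowest for 6-month mTEChi (0.947) and highest for 6-month Sirpa+ DC (0.994). The difference between 3′ and 5′ probe sets of Gapdh and Actb, a sign of RNA quality, was 1.41 to 2.04 at 6 months, against 1.41 to 3.07 at 3 months. One mTEClo array (3.07) and one Sirpa+ DC array (2.09), both at 3 months, had the highest values. The 99th percentile of an array was 11.76 to 12.11 at 6 months (median 11.91), against 11.47 to 12.10 at 3 months (median 11.62), while the array medians lay between 5.61 and 5.73, against 5.62 and 5.70.

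The first question was which genes moved the same way in every one of the 5 populations. In a model with population as a block, 2708 of 14130 genes differed between 6 and 3 months at an adjusted p under 0.05, 19.2% of those tested, 1521 of them higher and 1187 lower at 6 months. Of these, 2212 (15.7%) had a 6-month mean on the same side of the 3-month mean in all 5 populations, 1239 higher (8.77%) and 973 lower (6.89%). Without any test, 1861 genes were higher and 1819 lower in all 5 (13.2% and 12.9%), 26.0% in all. The changes were small: among the shared genes the median was log2 0.46 for the higher and -0.40 for the lower genes, 74 and 16 of them reached 2-fold, and the median of all tested genes was -0.0016. In 337 genes (2.38%) both 6-month arrays lay above both 3-month arrays in every population, and in 192 (1.36%) both lay below, 529 in all (3.74%). These are bulk samples, so fewer cells of a type and less RNA per cell cannot be told apart. After quantile normalization of the 20 arrays, which equalises the brightness of their upper ends, 2282 genes were shared, 1098 higher and 1184 lower. Without the mTEClo and Sirpa+ DC arrays of 3 months with the highest 3′ minus 5′ difference the count was 2489, with 1691 higher and 798 lower.

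The shared genes differed from the rest in level as well. The higher genes had a median log2 level of 8.46 over these 20 arrays and the lower genes 7.12, against 7.42 for all tested genes. Their genomic span, from RefSeq for 99.9% of each set, had a median of 27.0 kb for the higher and 21.7 kb for the lower genes, against 22.0 kb for all tested genes. With the 8 dendritic arrays alone 1145 genes passed in the same direction in both populations, and with the 12 epithelial arrays alone 1073 in all 3 populations.

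**Figure D1:**
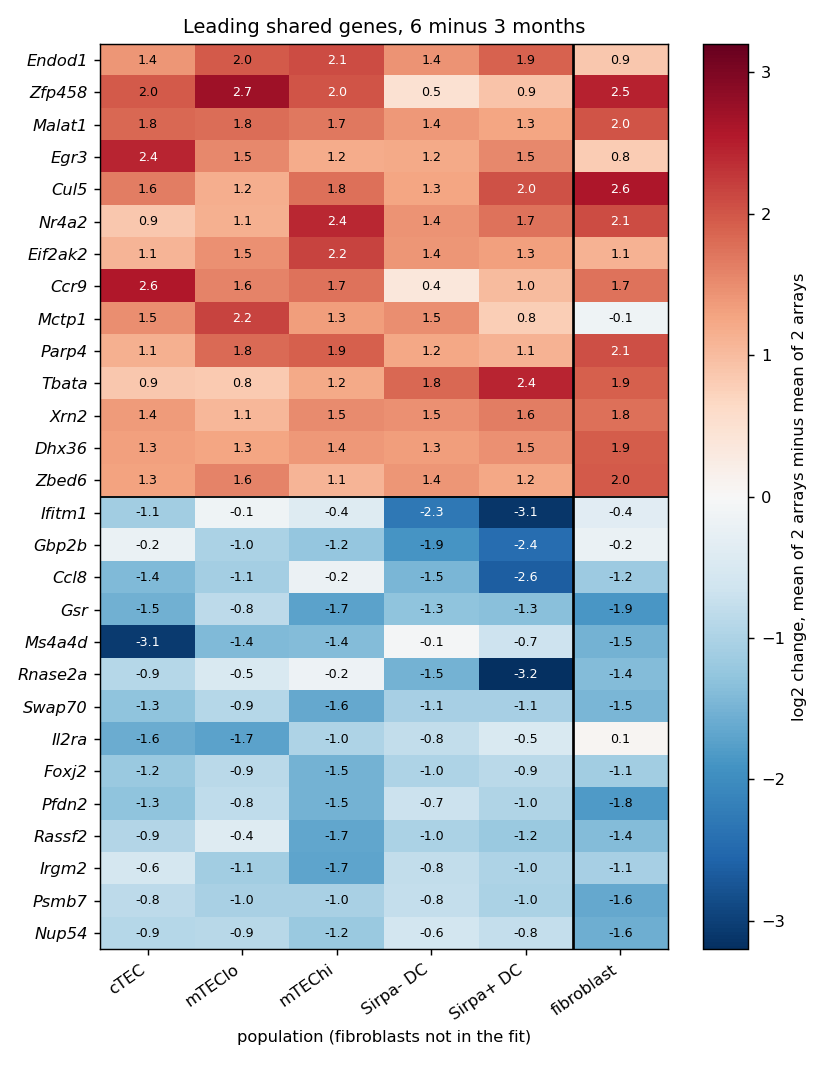
Log2 change from 3 to 6 months (6 minus 3, mean of 2 arrays minus mean of 2 arrays) of 28 genes named among the largest shared changes, in each of the 5 populations and, right of the line, in fibroblasts, which were not in the fit. The upper genes are positive in all 5 populations and the lower ones negative, while Ifitm1, Ms4a4d and Rnase2a range from near 0 to below -3 among populations.

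Many genes have several probe sets on this array, which allowed a second reading of the same transcripts. A second probe set above the filter was present for 779 of the 1239 higher genes, and 71.0% of these had a positive change on it. Of the 779, 287 (36.8%) also passed the test upward on the second probe set and 48 (6.16%) passed it downward. For the 380 lower genes with a second probe set, 62.6% had a negative change, 81 (21.3%) passed downward and 41 (10.8%) upward. Over all 6193 genes with both, 60.0% had the same sign on both probe sets. The median change was 0.46 on the brightest and 0.19 on the next brightest probe set for the higher genes, and -0.42 and -0.10 for the lower ones. A called gene therefore stands here for its brightest probe set, and the second value is given beside many of the named genes that have one. On the next brightest probe sets themselves 30.7% of 6258 genes passed, 21.6% upward and 9.03% downward.

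**Figure D2:**
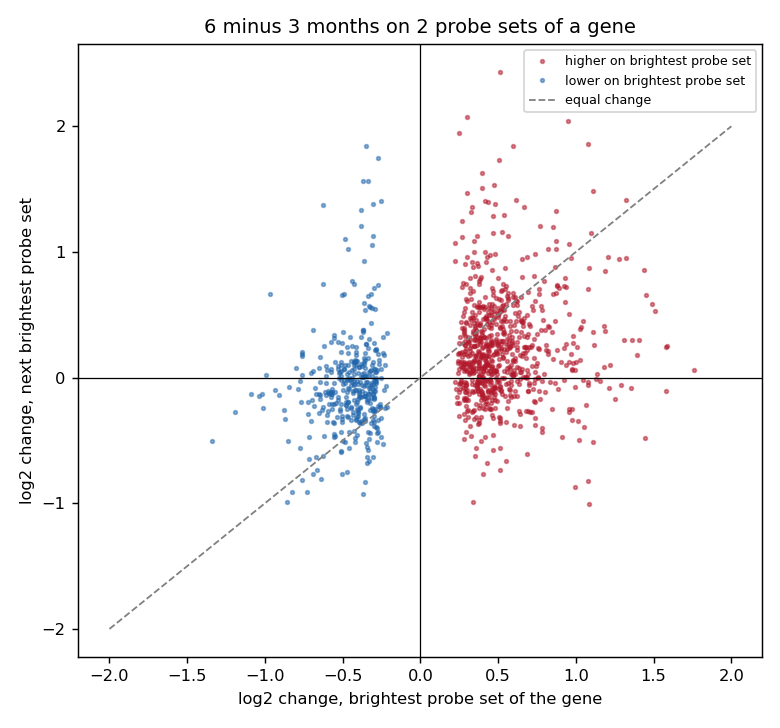
Log2 change from 3 to 6 months on the brightest probe set of each shared gene (horizontal axis) and on its next brightest probe set (vertical axis); each point is a gene, red for higher and blue for lower on the brightest probe set, and the dashed line marks equal change. The points spread around 0 on the vertical axis, with a median of 0.19 for the red and -0.10 for the blue points.

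Of the genes with the largest shared rises, Malat1 and Xrn2 are given first. Malat1, an abundant long noncoding RNA retained in the nucleus, rose by log2 1.59 ± 0.14 SE, adjusted p = 1.13e-07, with 12.37 to 13.37 in the 6-month arrays (median 12.66), against 10.69 to 11.86 in the 3-month arrays (median 11.20). Every 6-month array of the 5 populations lay above every 3-month one. Malat1 has 7 probe sets, and the difference of 6 minus 3 months on them ran from 0.25 to 2.83. Xrn2, the nuclear 5′ to 3′ exoribonuclease that acts in transcription termination, had 9.37 to 10.58 in the 6-month arrays (median 9.77), against 8.06 to 9.44 in the 3-month arrays (median 8.43), and rose by 1.40 ± 0.10. The lowest 6-month array lay just below the highest 3-month array, of another population, and within each population the ages did not overlap. Its next brightest probe set changed by 0.30 (adjusted p = 0.0211).

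Dhx36, Zbed6 and Zfp458 were also among the leading shared genes. Dhx36, a helicase that unwinds G-quadruplexes, rose by 1.35 ± 0.10 (range over populations 1.27 to 1.47) on its brightest probe set, but changed by -0.08 (adjusted p = 0.669) on the next. Zbed6, a repressor of Igf2 in muscle that lies within an intron of another gene, rose by 1.33 ± 0.11, and its second probe set by 1.41 (adjusted p = 1.39e-06). Zfp458, a zinc finger protein gene, rose by 1.62 ± 0.22, but 0 of the 10 arrays of 3 months and 0 of the 4 Sirpa- DC arrays lay above the filter's floor (log2 5.66). It passed the filter through 7 of the 6-month arrays alone, so its fold changes are set against a signal at background. Of 29 tested splicing factor genes, 11 were higher and 1 was lower at 6 months, against 10.8% and 8.4% of all tested genes. In all 5 populations 8 of them were higher and 1 lower, and the list's median change was 0.20. After quantile normalization 8 were higher and 3 lower. Rbm39, a splicing factor of the serine-arginine family, rose by 1.08 ± 0.12, with 10.17 to 11.70 in the 6-month arrays (median 10.96), against 9.50 to 10.12 in the 3-month arrays (median 9.70), and its second probe set by 0.71 (adjusted p = 8.91e-05). Son, a scaffold of nuclear speckles, rose by 0.63 ± 0.13 and Srsf6 by 0.52 ± 0.11, while Snrnp70, the U1 snRNP protein, fell (-0.67 ± 0.17) with a second probe set at -0.13 (adjusted p = 0.394). Among 12 nuclear noncoding RNAs 3 rose in all 5 populations, Malat1 and the snoRNA hosts Snhg1 (0.65 ± 0.10) and Snhg12 (0.50 ± 0.12), and 0 fell, with a list median of -0.02.

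**Figure D3:**
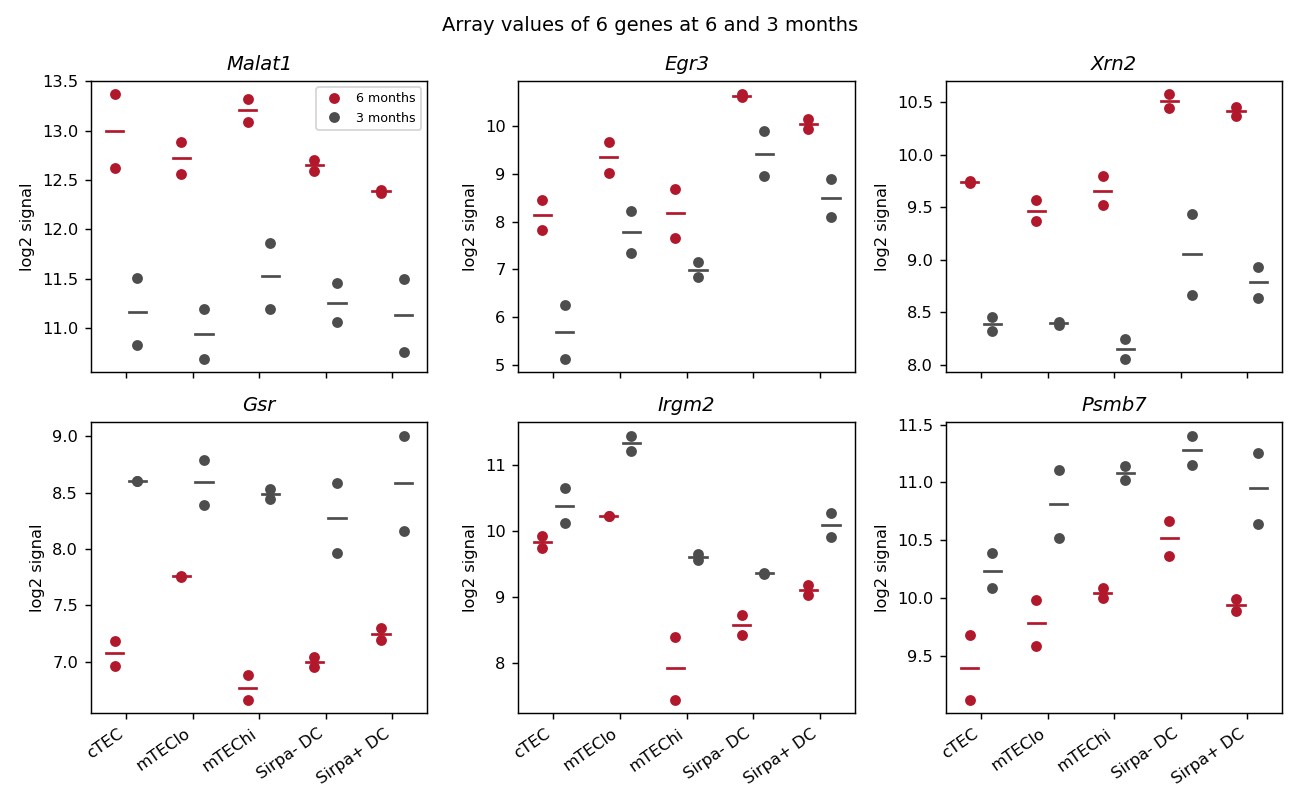
Log2 signal of 6 genes in each array at 6 months (red, left) and 3 months (grey, right) of the 5 populations; points are single arrays and bars the means of 2. For Malat1, Egr3 and Xrn2 both 6-month arrays lie above both 3-month arrays in every population, and for Gsr, Irgm2 and Psmb7 both lie below.

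Immediate early genes, transcribed within minutes of a stimulus, formed the list with the most genes called higher. Of 25 tested, 17 were higher and 0 lower at 6 months, 14 of them in all 5 populations, against 10.8% higher and 8.4% lower among all genes. The list's median change was 0.66. Egr3, a zinc finger transcription factor of this class, had 7.66 to 10.65 in the 6-month arrays (median 9.33), against 5.14 to 9.88 in the 3-month arrays (median 7.73), and rose by 1.58 ± 0.20 (adjusted p = 1.59e-05). The ages overlapped across populations but not within any, and its dimmer second probe set changed by -0.10 (adjusted p = 0.467). Nr4a2, an orphan nuclear receptor, rose by 1.51 ± 0.16, from 0.85 in cTEC to 2.41 in mTEChi, with 0.53 (adjusted p = 0.0878) on its second probe set. Ier2, with 1 probe set, had 10.52 to 11.54 in the 6-month arrays (median 11.09), against 9.02 to 11.29 in the 3-month arrays (median 9.58), a rise of 1.18 ± 0.12. Atf3, a stress-induced bZIP factor, rose by 1.02 ± 0.19 with 3 of 5 populations free of overlap. The count stayed at 16 to 21 higher and 0 lower in 20 fits that each left out 1 array, and it was 20 without the pair of 3-month arrays with the highest 3′ minus 5′ difference. With epithelial arrays alone it was 7, with dendritic arrays alone 17. On the next brightest probe sets 3 of 10 members were higher and 1 was lower.

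Genes induced by glucocorticoids, hormones that deplete thymocytes, and heat shock genes moved in part. Among all tested genes 10.8% were higher and 8.4% lower. Of 18 glucocorticoid-induced genes 6 were higher and 1 was lower, 5 and 0 of them in all 5 populations, with a median of 0.21, and 4 were higher and 2 lower, with a median of 0.12, after quantile normalization. Sgk1, a kinase of ion transport, rose by 0.79 ± 0.12 and had 9.05 to 11.21 in the 6-month arrays (median 10.67), against 8.67 to 10.57 in the 3-month arrays (median 9.76). Dusp1, a phosphatase of MAP kinases that belongs to the immediate early list as well, rose by 0.71 ± 0.14. Klf9 (0.55 ± 0.16) and the metallothionein Mt1 (0.50 ± 0.11) rose on their brightest probe sets and had -0.05 and -0.04 on the next. Well-known members of the list did not pass: Fkbp5 was at -0.07 (adjusted p = 0.641) and Tsc22d3 at -0.14 (adjusted p = 0.518). Of 19 heat shock and chaperone genes 6 were higher and 2 lower, 4 and 2 in all 5 populations, with a median of 0.22, and 4 were higher and 3 lower, with a median of 0.04, after quantile normalization. Without cTEC 3 glucocorticoid-induced genes were higher. Hspa1b and Hspa1a, near-identical inducible chaperones whose probes may share signal, rose by 0.67 ± 0.10 and 0.63 ± 0.12, both least in mTEClo, at 0.14 and 0.12. Hsp90aa1 rose by 0.62 ± 0.10 and by 1.41 (adjusted p = 1.41e-10) on its second probe set. Serpinh1, the collagen chaperone, fell in all 5 (-0.69 ± 0.07, second probe set -0.77 (adjusted p = 4.89e-05)).

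Eif2ak2, Stat2 and Irf9, of interferon signalling, were among the higher genes. Stat2 and Irf9 are on the list of type I interferon-induced genes, which as a whole was not above the share of all genes. Eif2ak2 is not on that list and is not in its counts. Eif2ak2, the kinase that halts translation on binding double-stranded RNA, had 8.74 to 9.96 in the 6-month arrays (median 9.54), against 6.78 to 9.03 in the 3-month arrays (median 8.28), and rose by 1.49 ± 0.12 on its brightest and by 0.58 (adjusted p = 0.0011) on its next probe set. Stat2, a mediator of type I interferon signalling, rose by 1.04 ± 0.13 and by 0.45 (adjusted p = 0.0128), and its partner Irf9 by 0.46 ± 0.09, with 0.40 to 0.50 over the populations. Of the 24 type I interferon-induced genes tested, these were the 2 that rose, while Oas3 (-0.55 ± 0.13) and Bst2 (-0.54 ± 0.10) fell, and the list's median was -0.08. Those 2 of 24 compare with 10.8% higher over all genes. Ppp1r15a, the phosphatase subunit that restores translation after stress, rose by 0.82 ± 0.13. In the same list of the integrated stress response, with 6 of 19 higher and 4 lower, the amino acid transporter gene Slc7a5 (-0.93 ± 0.16) and the mitochondrial folate enzyme gene Mthfd2 (-0.65 ± 0.14) fell in all 5. Among genes of the unfolded protein response, 2 of 19 were higher and 1 lower, near the share of all genes: Hspa5, the main chaperone of the endoplasmic reticulum, rose by 0.55 ± 0.10 (second probe set 0.73 (adjusted p = 8.18e-05)) and Dnajb9 by 0.39 ± 0.12, while Sel1l fell by 0.38 on its brightest probe set and was at 0.01 (adjusted p = 0.962) on the next.

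Other leading higher genes had diverse functions, and 2 with larger changes are unnamed loci. Cul5, the scaffold of a ubiquitin ligase, had 7.89 to 9.11 in the 6-month arrays (median 8.13), against 5.56 to 7.58 in the 3-month arrays (median 6.65), and rose by 1.58 ± 0.17, with 0.24 (adjusted p = 0.143) on its second probe set. Endod1, an endonuclease domain protein gene, rose by 1.76 ± 0.12 on its brightest and was at 0.06 (adjusted p = 0.704) on its next probe set, which has almost the same mean level, and the other 3 probe sets differed by 0.20, 1.41 and 1.62. Parp4, the vault poly(ADP-ribose) polymerase, rose by 1.44 ± 0.14 on one probe set and fell on the other (-0.48 (adjusted p = 0.000876)), so its direction was not settled. Mctp1, a calcium-binding membrane protein gene with 1 probe set, rose by 1.45 ± 0.18. Gclc, the catalytic subunit of glutathione synthesis, rose by 0.96 ± 0.14 and by 0.50 (adjusted p = 0.00034), in a list of 21 antioxidant genes with 7 higher and 0 lower, which does not hold Gsr or Gss, glutathione genes that fell in all 5 populations. H3f3a, which encodes histone H3.3 and was read from 1 probe set, rose by 1.17 ± 0.13. Its mean signal was 7.25 at 6 months, against 6.08 at 3 months. It lay above the filter's floor in 10 of 10 arrays at 6 months but in 7 of 10 at 3 months. Its rise is therefore set against a signal near background. Hes1, a target of Notch, rose by 1.12 ± 0.14, and Cdkn1b, the cell cycle inhibitor p27, by 0.76 ± 0.13. Tcf7l2, a Wnt effector, rose by 1.01 ± 0.14 but its second probe set fell (-0.34 (adjusted p = 0.0427)). Of 26 ribosomal protein genes 12 were higher and 0 lower, 4 of them in all 5 populations, with a median of 0.37, but 8 were higher and 3 lower, with a median of 0.08, after quantile normalization. Without mTEChi 6 of these genes were higher, without cTEC 4 and without mTEClo 19. The shares over all tested genes were 10.8% higher and 8.4% lower. Rps9, of the small subunit, rose by 0.65 ± 0.12, with 0.03 in mTEClo and 1.09 in cTEC. Nolc1 (0.94 ± 0.14, second probe set 0.10 (adjusted p = 0.652)) and Npm1 (0.61 ± 0.11, second 0.65 (adjusted p = 0.000347)) were among 7 of 27 ribosome biogenesis genes that rose.

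Among the falls without overlap in any population, that of Gsr was the largest of the named genes. Gsr, glutathione reductase, had 6.66 to 7.76 in the 6-month arrays (median 7.12), against 7.97 to 9.01 in the 3-month arrays (median 8.56), a change of log2 -1.34 ± 0.12 SE, adjusted p = 1.95e-07. Every 6-month array lay below every 3-month array, and its second probe set fell as well (-0.50 (adjusted p = 0.00669)). Psmb7, a catalytic core subunit of the constitutive proteasome, had 9.12 to 10.67 in the 6-month arrays (median 9.98), against 10.09 to 11.41 in the 3-month arrays (median 11.06), a change of -0.94 ± 0.11 in which the ages did not overlap within any population, with -1.04 to -0.76 over the populations. In the proteasome list of 30 genes 5 were higher and 2 lower, beside 10.8% and 8.4% of all tested genes. Psmb7 thus moved against subunits such as Psma4 (0.50 ± 0.11) and Psma7 (0.45 ± 0.10). Pfdn2, a subunit of the prefoldin chaperone, fell (-1.05 ± 0.12), as did the forkhead factor Foxj2 (-1.08 ± 0.13) and the nucleoporin Nup54 (-0.87 ± 0.12, second probe set -0.33 (adjusted p = 0.0373)). Swap70, which acts in migration and class switching of immune cells, changed by -1.19 ± 0.14, but by -0.28 (adjusted p = 0.0525) on its second probe set. For the ubiquitin ligase Siah1a (-0.94 ± 0.14), the kinetochore gene Ska2 (-0.77 ± 0.12) and Rassf2 (-1.04 ± 0.18) the second probe sets gave -0.10, -0.03 and -0.15 and did not pass. Zc3h12d, a ribonuclease that restrains immune activation, fell within a narrow range (-1.10 to -0.83). Pfkl, the liver-type phosphofructokinase, fell on both probe sets, by 0.55 and 0.47 on the log2 scale.

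Interferon-inducible GTPases, immune effectors that attack the vacuoles of intracellular pathogens, were the list with the most negative median, at -0.83. Of 10 tested, 7 were lower and 0 higher at 6 months, 5 of them in all 5 populations, against 8.4% lower and 10.8% higher among all genes. Irgm2 had 7.44 to 10.22 in the 6-month arrays (median 9.11), against 9.35 to 11.44 in the 3-month arrays (median 10.01), a change of log2 -1.02 ± 0.13 SE, adjusted p = 2.3e-05. Its 2 ages did not overlap in any population, and the change ran from -0.56 in cTEC to -1.68 in mTEChi. Gbp6, a guanylate-binding protein gene, had 6.02 to 9.97 in the 6-month arrays (median 9.35), against 6.36 to 10.95 in the 3-month arrays (median 10.10), a change of -0.88 ± 0.12 with -0.26 (adjusted p = 0.31) on its second probe set. Gbp2 (-0.83) and Gbp3 (-0.83) fell in all 5 as well, and Igtp (-0.48) passed with 1 or more populations in the other direction. At 1 month the mean of the 10 arrays was 9.45 for Irgm2 and 8.90 for Gbp6, against 10.15 and 9.46 at 3 months and 9.13 and 8.58 at 6 months. The 3-month arrays held the highest mean of the 3 ages for both. Leaving out any 1 array gave 7 to 9 lower genes, epithelial arrays alone gave 2 and dendritic arrays alone 8.

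Sequence upstream of the start is shown for the 4 falling GTPase genes that have an entry in the RefSeq table (GRCm38.p6). The 250 bases before the first listed start of each gene are printed 5′ to 3′, with capitals for matches on either strand to the interferon-stimulated response element (GAAA, any 2 bases, GAAA) or the gamma-activated site (TTC, any 3 bases, GAA).
Irgm2, chr11:58214727-58214976, + strand: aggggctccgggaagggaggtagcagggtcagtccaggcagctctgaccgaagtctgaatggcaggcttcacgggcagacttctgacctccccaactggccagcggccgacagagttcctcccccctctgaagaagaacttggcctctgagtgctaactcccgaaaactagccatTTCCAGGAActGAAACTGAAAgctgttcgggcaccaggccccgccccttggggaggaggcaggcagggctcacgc
Igtp, chr11:58199306-58199555, + strand: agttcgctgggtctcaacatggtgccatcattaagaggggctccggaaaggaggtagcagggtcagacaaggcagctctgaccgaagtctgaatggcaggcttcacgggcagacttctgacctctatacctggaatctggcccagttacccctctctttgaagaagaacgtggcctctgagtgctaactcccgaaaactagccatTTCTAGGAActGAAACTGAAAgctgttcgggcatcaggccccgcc
Gbp2, chr3:142620413-142620662, + strand: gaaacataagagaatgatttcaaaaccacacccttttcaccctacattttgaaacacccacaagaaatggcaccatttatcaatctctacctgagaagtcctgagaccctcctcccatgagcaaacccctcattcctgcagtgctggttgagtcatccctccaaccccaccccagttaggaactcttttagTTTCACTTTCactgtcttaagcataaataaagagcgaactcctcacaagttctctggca
Gbp3, chr3:142559794-142560043, + strand: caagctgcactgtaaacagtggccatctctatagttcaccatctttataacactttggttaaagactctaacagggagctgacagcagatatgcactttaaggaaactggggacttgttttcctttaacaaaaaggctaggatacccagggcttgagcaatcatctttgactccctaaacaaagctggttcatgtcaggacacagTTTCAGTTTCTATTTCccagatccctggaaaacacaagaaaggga
All 4 held the response element, with 2 overlapping matches in Gbp3, and Irgm2 and Igtp held both elements side by side. Over the whole list it was in 6 of 7 upstream sequences, uncalled members included, and in 9 of 18 of the type I interferon-induced genes. Over the 11331 tested genes with an upstream sequence, 2.64% held the response element and 5.86% the gamma-activated site. Among the shared lower genes 3.99% of 777 held the response element, and among the shared higher genes 2.65% of 1018. These are matches of letters and describe neither binding nor a cause.

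Other shared genes with large negative mean changes had a wide range over the populations. Ifitm1, an interferon-induced membrane protein gene, had 5.13 to 10.32 in the 6-month arrays (median 7.10), against 7.35 to 10.91 in the 3-month arrays (median 9.60), a change of -1.41 ± 0.30, from -0.14 in mTEClo to -3.11 in Sirpa+ DC, and its change differed between epithelial and dendritic cells (2.15, adjusted p = 0.0149). Gbp2b (-1.36 ± 0.23), the chemokine gene Ccl8 (-1.36 ± 0.47, adjusted p = 0.0483) and the eosinophil-type ribonuclease gene Rnase2a (-1.26 ± 0.34) had their lowest values of change in Sirpa+ DC, at -2.43, -2.64 and -3.22. The second 3-month dendritic arrays carried much of this for Ccl8 and Rnase2a. In Sirpa+ DC Ccl8 was at 7.02 and 7.45 at 6 months, against 7.96 and 11.79 at 3 months, and in Sirpa- DC at 6.42 and 5.90, against 5.38 and 9.86. Rnase2a in Sirpa+ DC was at 5.50 and 6.14, against 7.72 and 10.36. Without the second 3-month array the Sirpa+ DC change was -0.73 for Ccl8 and -1.90 for Rnase2a, and that of Ccl8 in Sirpa- DC was 0.78. Without both arrays Ccl8 no longer passed (log2 -0.61, adjusted p = 0.0902), and Rnase2a did (-0.75, adjusted p = 0.00518). Ms4a4d was at -3.07 in cTEC, and 0 of 8 dendritic arrays lay above the floor for it. Gbp2b lay above the floor in 5 of 12 epithelial and 6 of 8 dendritic arrays, and Rnase2a in 5 and 4. Il2ra, the alpha chain of the interleukin 2 receptor, fell (-1.12 ± 0.18), from -1.72 in mTEClo to -0.50 in Sirpa+ DC. Spon1, a matrix protein gene, changed by -1.02 ± 0.24 on its brightest and by -0.13 (adjusted p = 0.436) on its next probe set. Its brightest probe set lay above the floor in 2 of 12 epithelial and 5 of 8 dendritic arrays.

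Few genes of the cell cycle passed, beside shares of 10.8% higher and 8.4% lower over all tested genes. Of 30 mitotic genes 0 were higher and 1 was lower, the kinase gene Plk1 (-0.71 ± 0.14), which was at 0.05 in cTEC. Of 30 DNA replication genes 1 was higher and 4 were lower, among them Ccne1, the cyclin of entry into S phase (-0.56 ± 0.11), and Gins1 of the replicative helicase (-0.54 ± 0.09), with list medians of 0.04 and -0.05. Of 17 senescence-associated genes 4 were higher and 0 lower, Cdkn1b and the nuclear lamin gene Lmnb1 (0.51 ± 0.11, second probe set 0.62 (adjusted p = 0.000677)) among them. The list was not split by the direction its members take in senescence, so this count is not a measure of senescence. Of 20 cholesterol synthesis genes 5 were lower and 1 was higher: Msmo1 rose on both probe sets (0.65 and 0.94), while Cyp51 fell on one (-0.51 ± 0.14) and was at 0.20 (adjusted p = 0.263) on the other. Of 17 apoptosis regulators 0 passed, and of 33 respiratory chain genes 8 were higher and 2 lower, such as Cox7a2 (0.46 ± 0.10, second probe set 0.29 (adjusted p = 0.0217)). Actb rose on both probe sets (0.68 ± 0.13 and 0.96 (adjusted p = 7.01e-08)), and Tagln, an actin-binding protein gene, fell (-0.56 ± 0.12).

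**Figure D4:**
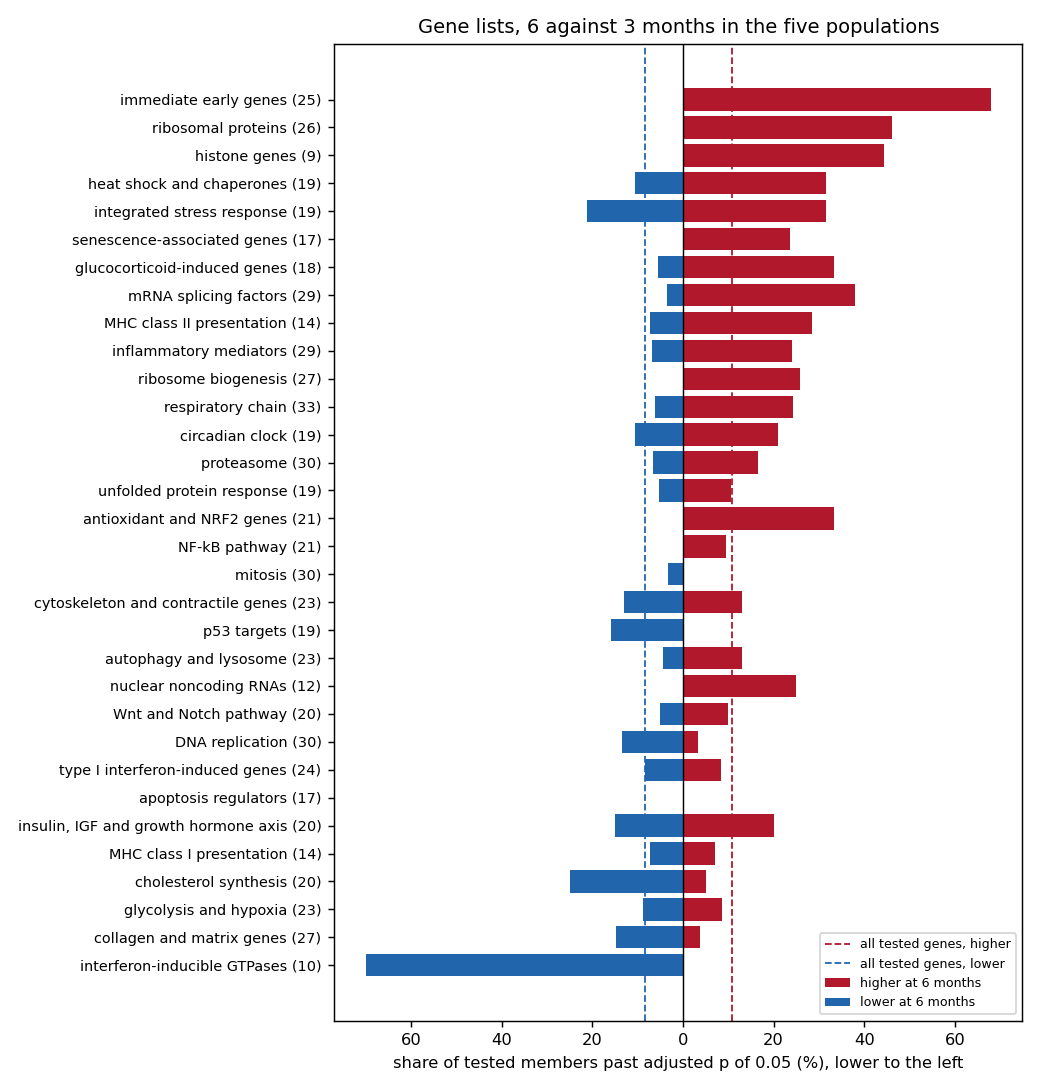
Share of the tested members of each process list (number in brackets) past an adjusted p of 0.05, higher at 6 months to the right in red and lower to the left in blue, ordered by the list's median change; dashed lines give the shares over all tested genes, 10.8% higher and 8.4% lower. Immediate early genes lie at the top with 17 of 25 higher, and interferon-inducible GTPases at the bottom with 7 of 10 lower.

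The circadian clock is a feedback loop of transcription factors that runs in most cells. Of 19 clock genes tested 4 were higher and 2 lower, with a median of 0.11, beside 10.8% higher and 8.4% lower over all tested genes. Nr1d2 and Nr1d1, repressors of the clock's activating arm, rose by 0.73 ± 0.17 and 0.31 ± 0.11, Cry1 of the negative arm by 0.49 ± 0.10 and the output factor Dbp by 0.34 ± 0.10, with 0.08 (adjusted p = 0.592) on its second probe set. Npas2, a partner of Arntl, fell (-0.56 ± 0.18), with 0 of 8 dendritic arrays above the floor, and Per1 fell (-0.43 ± 0.15) with dendritic changes of 0.04 and -0.06. Arntl (0.26) and Per2 (-0.03) did not pass. The hour of collection is not given in the sources used here.

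Markers of cells outside the gates moved for some lists, beside 10.8% higher and 8.4% lower over all tested genes. Of 13 thymocyte markers 3 were higher and 0 lower, with a list median of 0.08. Their mean level was 7.80 and 8.44 in cTEC at 6 months, against 6.74 and 7.66 at 3 months, and 6.04 to 7.36 in the other 6-month arrays, against 5.83 to 7.80 in the other 3-month arrays. Rag1, of antigen receptor recombination, rose by 1.37 ± 0.43, and in cTEC was at 9.94 and 10.70 at 6 months, against 6.07 and 9.55 at 3 months. Ccr9, a chemokine receptor of thymocytes and of plasmacytoid dendritic cells, rose by 1.45 ± 0.28 and by 0.66 (adjusted p = 0.0453), with 2.56 in cTEC. There it was at 9.52 and 10.52 at 6 months, against 6.17 and 8.76 at 3 months, and without the first 3-month array the change was 1.26. Ptprc, the pan-leukocyte gene CD45, rose by 0.93 ± 0.18, most in mTEClo (1.59) and cTEC (1.40). With the thymocyte mean as a covariate 1830 genes were shared, 1091 higher and 739 lower.

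Other marker lists were mixed, beside the same shares of 10.8% higher and 8.4% lower over all tested genes. Of 9 fibroblast, 8 B and plasma cell and 6 endothelial markers 0 passed. Of 10 macrophage markers 1 was higher, near the share of all genes: Lyz2 (0.71 ± 0.19). The macrophage mean was 8.99 and 9.09 in Sirpa- DC at 6 months, against 6.98 and 8.98 at 3 months, so 1 of the 3-month arrays stood apart. Of 5 natural killer cell markers 2 were lower, of 3 erythroid markers 2 and of 7 neutrophil markers 2, with list medians of -0.52, -0.30 and -0.12. The mean of the 9 B cell markers with a probe set in Sirpa- DC was 5.84 and 6.16 at 6 months, against 6.00 and 8.22 at 3 months, and in Sirpa+ DC 6.54 and 6.85, against 6.50 and 8.06. The natural killer mean in Sirpa+ DC was 5.05 and 5.12, against 5.50 and 6.26, so the second 3-month array stood apart in both dendritic populations. Without these 2 arrays 2204 genes were shared, 1171 higher and 1033 lower, with 17 immediate early genes higher and 7 GTPases lower. The part of these cells in the shared changes was not tested beyond the thymocyte covariate. Of the populations' own markers, Tbata, a thymic gene on the cTEC list, rose by 1.44 ± 0.21 and by 0.86 (adjusted p = 9.64e-05), to 12.41 in cTEC, against 11.54, and to 6.97 in Sirpa+ DC, against 4.53. Epcam fell on both probe sets (-0.63 ± 0.16 and -0.62 (adjusted p = 5.49e-06)), and Cd74, the invariant chain of MHC class II, rose by 0.40 ± 0.12.

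The next question was which changes differed among the 5 populations. A moderated F-test called 74 of 14130 genes (0.524%), and 70 (0.495%) differed between epithelial and dendritic cells, 45 with the higher change in epithelial (0.318%) and 25 in dendritic cells (0.177%). Of the 2212 shared genes 2 of the higher and 2 of the lower ones were called by the F-test. Their choice on the same arrays favours changes of the same direction and like size. This low count was therefore built in and does not test whether their changes are equal. Without the first 6-month mTEChi array the F-test called 1139 genes and the epithelial to dendritic contrast 399, and without the first 6-month Sirpa+ DC array they called 33 and 29. Prg4, lubricin, was at 4.69 and 4.17 in cTEC at 6 months, against 8.03 and 8.14 at 3 months, and at 5.64 and 5.96 in mTEClo, against 9.33 and 10.52. In mTEChi it was at 10.40 and 10.08, against 9.67 and 10.09 (F-test adjusted p = 9e-05), and 0 of 8 dendritic arrays lay above the floor. Otog, an inner ear matrix gene, was at 9.99 and 9.31 in cTEC at 6 months, against 6.43 and 5.69, and changed by -0.60 to 0.04 in the other 4 populations. Il33, an alarmin cytokine gene, was at 5.24 and 5.33 in mTEClo, against 8.59 and 7.82, and at 10.46 and 10.58 in cTEC, against 9.51 and 9.83.

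Some interferon and chemokine genes changed to another extent in dendritic than in epithelial cells. Iigp1, a GTPase of the same family as Irgm2, was at 6.62 and 7.26 in Sirpa- DC at 6 months, against 10.03 and 10.01, and at 7.91 and 8.34 in Sirpa+ DC, against 10.67 and 10.72. In the epithelial populations it changed by -0.45 to 0.40, and the epithelial minus dendritic difference was 2.72 ± 0.22 (adjusted p = 6.22e-06). Gm4951, a further gene on the GTPase list, differed likewise (2.17, adjusted p = 7.52e-06), though its sign was negative in all 5. The ages overlapped in mTEClo, at 10.31 and 10.19 at 6 months, against 10.24 and 10.32 at 3 months. They did so in cTEC as well, at 9.82 and 9.61, against 9.81 and 9.89. The inflammatory chemokine Ccl3 was at 11.15 and 10.61 in Sirpa+ DC, against 8.36 and 8.94, and at 9.24 and 8.85 in Sirpa- DC, against 6.12 and 7.09. Its difference was -2.07 (adjusted p = 0.00326), and that of Ccl4 -1.64, with 2 and 6 of 12 epithelial arrays above the floor. Cxcl2, a neutrophil chemokine, and Ptgs2, cyclooxygenase 2, rose in all 5 (0.77 ± 0.24 and 0.95 ± 0.21). In cTEC Ptgs2 was at 4.74 and 5.58 at 6 months, against 4.33 and 4.06 at 3 months, all below the floor. Chil3 had the largest difference (5.21), but its 3-month arrays disagreed, at 3.77 and 10.02 in Sirpa- DC.

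Within single populations, with 2 arrays against 2 and one shared estimate of the spread, fewer genes passed. They numbered 435 in cTEC (3.05%, with 2.31% higher and 0.743% lower), 285 in mTEClo (2.0%, with 1.37% and 0.624%) and 805 in mTEChi (5.64%, with 3.67% and 1.98%). In dendritic cells they numbered 37 in Sirpa- DC (0.259%, with 0.175% higher and 0.0841% lower) and 109 in Sirpa+ DC (0.764%, with 0.596% and 0.168%). Each of these counts depended on single arrays: mTEChi gave 114 without its second 3-month array and 2731 without its first 6-month array, and cTEC gave 55 without its second 6-month array. The median change of the 1239 shared higher genes ran from 0.34 in mTEClo to 0.54 in cTEC, and that of the 973 lower genes from -0.29 in Sirpa- DC to -0.47 in mTEChi.

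Fibroblasts took no part in the choice of the shared genes, and their arrays are other arrays, though the mice may be the same. They held much thymocyte signal: the mean of 13 thymocyte markers was 10.87 and 11.20 at 6 months, against 10.54 and 10.49 at 3 months, with Rag1 at 12.59 and 12.56, against 12.14 and 11.88. The mean of 9 fibroblast markers was 11.85 and 9.39 at 6 months, against 12.01 and 11.38 at 3 months, so the second 6-month array stood apart. The values are therefore those of arrays labelled fibroblast, with thymocyte signal at both ages. Of the 1239 higher genes 1045 (84.3%) were higher at 6 months in these arrays too, with a median change of 0.52. Of the 973 lower genes 905 (93.0%) were lower, with a median of -0.50. Over all tested genes 39.8% were higher in fibroblasts and the median was -0.11. Leaving out each fibroblast array in turn gave 81.4% to 86.5% of the higher genes higher and 90.0% to 91.3% of the lower genes lower. In fibroblasts alone 1994 genes passed (14.0%), with 6.24% higher and 7.73% lower, and 438 of the shared higher genes rose and 266 of the shared lower genes fell there, with 4 and 1 the other way. Malat1 (2.00), Cul5 (2.58), Rbm39 (2.30), Gsr (-1.87) and Psmb7 (-1.63) passed in fibroblasts as well.

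**Figure D5:**
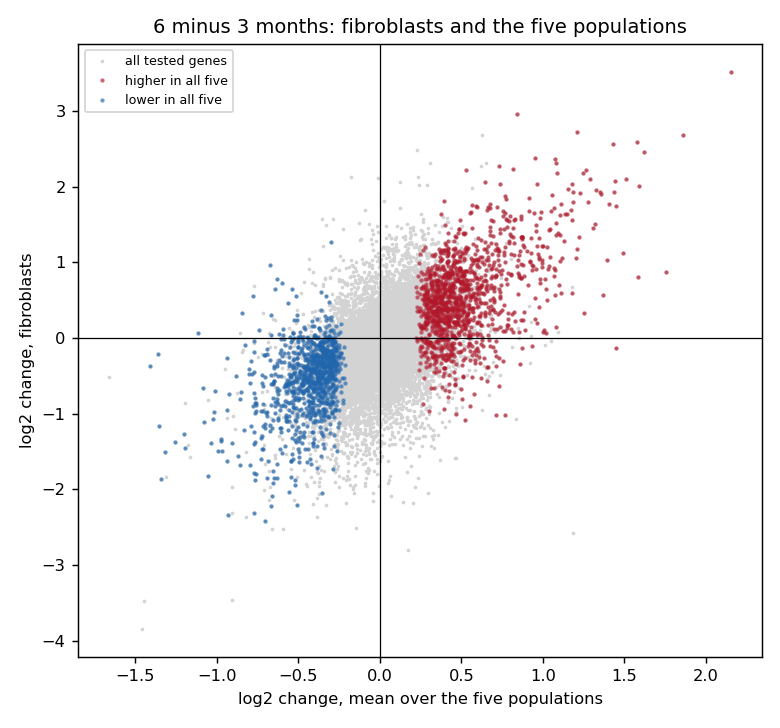
Log2 change from 3 to 6 months as the mean over the 5 populations (horizontal axis) and in fibroblasts (vertical axis), 1 point a gene: red for the 1239 shared higher genes, blue for the 973 shared lower genes and grey for all tested genes. Of the red points 84.3% lie above 0 in fibroblasts and of the blue points 93.0% lie below, while 39.8% of all tested genes lie above.

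The fibroblast change differed from the mean of the 5 populations in 513 of 14268 genes (3.6%), 196 above (1.37%) and 317 below (2.22%). Without the first 6-month fibroblast array 1664 genes differed and 2909 passed in fibroblasts alone, without the second 3-month array 92 differed, and without the second 6-month array 597 passed in fibroblasts alone. Genes of the cell cycle were among those below: E2f7, a repressor of E2F targets, was at 6.22 and 6.33 in fibroblasts at 6 months, against 8.42 and 9.16 at 3 months. Its mean change over the 5 populations was -0.15, but these moved in both directions. In mTEClo E2f7 was at 5.74 and 5.55, against 7.12 and 6.69, and in Sirpa- DC at 8.02 and 7.94, against 7.15 and 7.06. The median change of 30 mitotic genes was -0.86 in fibroblasts and 0.04 over the 5 populations, and that of 30 replication genes -1.05 and -0.05. In these arrays thymocyte markers rose (median 0.45) and fibroblast markers fell (-1.10), and the part of the cell mixture in the result was not tested. Without the second 6-month array these medians were -1.11 for mitotic, -1.16 for replication, 0.36 for thymocyte and 0.25 for fibroblast genes. Of the immediate early genes the median was 0.14 in fibroblasts, with -0.27 to 0.81 when 1 array was left out, where Atf3 was at 0.06 and did not pass. Cxcl9, a chemokine induced by interferon gamma, changed by -0.91 ± 0.20 over the 5 and by -3.47 in fibroblasts. Mctp1, one of the leading shared genes, was below the floor in all 4 fibroblast arrays, so its change there carries no measurement.

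The 1-month arrays of the same populations gave a further point of reference. The median level of the shared higher genes was 8.28 at 1 month, 8.22 at 3 months and 8.73 at 6 months. That of the lower genes was 7.32, 7.35 and 6.92, and that of all tested genes 7.44, 7.41 and 7.42. Malat1 averaged 11.49 ± 0.50 at 1 month, 11.21 ± 0.38 at 3 months and 12.79 ± 0.36 at 6 months (SD, n = 10 each). Gsr averaged 8.56 ± 0.38, 8.51 ± 0.30 and 7.17 ± 0.36 at the same ages. For both genes the 1-month and 3-month arrays overlapped and the 6-month arrays lay apart.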

How the data were processed

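RNA of sorted mouse thymic cells, extracted with Trizol, was hybridised as biotinylated cRNA to Affymetrix mouse genome arrays, per the labels' protocols. The deposited values are log2 signals. The submitters' processing notes name GCRMA, and the design text names normalization on the Gene Expression Commons platform; the sources used here give no versions. Of 45101 probe sets 34945 have 1 gene symbol, 932 several and 9160 none, in GEO's platform annotation. Each of 18193 genes was read from its one-symbol probe set with the highest mean over 36 arrays.

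Genes above the pooled array median (log2 5.66) in at least 2 of the 20 arrays were tested, 14130 in all. The main test was limma (version 3.58.1, R 4.3.3) with population as a block, an intensity trend and Benjamini-Hochberg adjustment over all tested genes, at 0.05. Every adjusted p is from limma. Differences among populations, and within-population and fibroblast changes, came from group-mean fits, the last 2 on 24 arrays and 14268 genes. On simulated data with the size of the main comparison, 72 of 100 genes changed by log2 0.5 were recovered. Of those changed by 1.0, 97 of 100 were recovered, with 17 false calls in all. The simulated noise was independent between arrays, without shared animals or array batch, so this count of false calls need not hold for these data. Genes were named by rule: the 15 largest shared changes each way, up to 10 each way by their smallest population change among genes without overlap, up to 4 called members of each list, all clock genes, and the 5 largest differences each way between groups of populations. Other members given from lists, with values that did not pass, were chosen after their values were seen. Unnamed loci were counted without a name. The genes, lists and rules were chosen with earlier results of these data known. The 6-month dendritic labels carry a description line and a disease tag that the others lack. Alternatives covered filters, probe sets, normalization, weights, blocks, covariates and each array left out. Leaving out arrays that stood apart, or whole lineages, was chosen after seeing the data.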

Additional observations from a re-analysis of the deposited data

Results flagged for a closer look

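These genes stand apart because the test of the difference between their changes in separate groups of populations passed at an adjusted p under 0.05. Values are differences of log2 changes, each change being 6 minus 3 months. The change was higher in epithelial than in dendritic cells for Zfp458 (1.53), Ifitm1 (2.15), Gm4951 (2.17), Iigp1 (2.72), Otog (1.23), Chil3 (5.21) and Plet1 (2.40). It was lower in epithelial than in dendritic cells for Ccl3 (-2.07), Prg4 (-2.04), Adgre4 (-2.26) and Ccl4 (-1.64). Several of these differences are set against a signal near background: 0 of 12 epithelial arrays lay above the filter's floor (log2 5.66) for Adgre4, 2 for Ccl3 and 6 for Ccl4, and 0 of 8 dendritic arrays for Prg4 and 1 for Otog and Zfp458. Chil3 was at 3.54 and 3.59 in Sirpa- DC at 6 months, against 3.77 and 10.02 at 3 months, and at 4.49 and 3.87 in Sirpa+ DC, against 7.45 and 10.98, so its 3-month arrays disagreed.

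The change was higher in fibroblasts than the mean change of the 5 other populations for Rbm39 (1.23), Cdkn1b (0.93) and Slamf1 (2.30). It was lower in fibroblasts for Mctp1 (-1.58), Slc7a5 (-1.41), Mt1 (-1.31), Mthfd2 (-1.20), Bst2 (-0.999), Cxcl9 (-2.56), Plk1 (-1.31), Ccne1 (-1.48), Gins1 (-1.09), Lmnb1 (-1.02), Pfkl (-1.08), Ackr3 (-2.98), E2f7 (-2.37), Mtm1 (-2.34) and Dpep1 (-2.38). Ackr3, a scavenging chemokine receptor gene, was at 6.71 and 4.08 in fibroblasts at 6 months, against 8.54 and 7.87 at 3 months, so its 6-month arrays were far apart. Mctp1 was above the floor in 0 of 4 fibroblast arrays. The fibroblast arrays held thymocyte signal, with a marker mean of 10.87 and 11.20 at 6 months, against 10.54 and 10.49 at 3 months, and their part in these differences was not tested. The groups hold 2 arrays each, and single arrays were not tested for standing apart.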

How the results depend on the processing

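The count of 2212 shared genes stayed within 1.5 times under other filters, normalizations, weights, covariates and blocks, and it ran from 1524 to 2291 when 1 population was left out. It was 514 with a change of at least 1.5-fold required as well, 1073 with epithelial arrays alone and 1145 with dendritic arrays alone (875 higher and 270 lower), the last 2 chosen after seeing the data and resting on fewer arrays. On the next brightest probe sets, also chosen after seeing the data, 1490 of 6258 genes passed in the same direction in all 5. The genes whose change differed among populations numbered 48 after quantile normalization, and those of mTEChi 1229. With all 36 arrays Sirpa+ DC gave 178. Leaving out each array in turn gave 1710 to 2916 shared genes, 33 to 1139 that differed among populations, 29 to 399 between epithelial and dendritic cells and 92 to 1664 between fibroblasts and the others. Within populations it gave 55 to 740 in cTEC, 79 to 398 in mTEClo, 114 to 2731 in mTEChi, 5 to 58 in Sirpa- DC, 5 to 226 in Sirpa+ DC and 597 to 2909 in fibroblasts. Most of these highest counts came without the first or the second 6-month mTEChi array, and most of the lowest without an array of the population concerned. Of 118 genes that could be named, some of them not called in the main fit, 9 lost their call in at least 1 of these fits. In the least favourable fit of each gene 0 called genes changed sign. After quantile normalization 8 lost their call, without cTEC 18 and without Sirpa+ DC 11. On the next brightest probe set 17 lost it with the same sign, besides those that turned. The direction turned on the next brightest probe set for Egr3 (-0.10), Parp4 (-0.48), Dhx36 (-0.082), Klf9 (-0.053), Mt1 (-0.036), Sel1l (0.0066), Tcf7l2 (-0.34), Cyp51 (0.20) and Uqcrc2 (-0.04), and with the mean of all probe sets for Sel1l (0.025). The cause was not tested. Deviations of same-numbered arrays at both ages of a population correlated across genes at -0.11 to 0.15. Across populations of one age they correlated at 0.0026 to 0.42 at 3 months, over 0.1 in 7 of 10 pairs, and at -0.0048 to 0.16 at 6 months, over 0.1 in 2 of 10 pairs. Arrays of one number and age may share animals, array batch or admixed cells. These correlations cannot tell these apart, and which of them applies was not tested. With the number as a replicate block 2056 genes were shared, and with age and number as a random block 1922. The number of arrays, 2 per group, limits the precision.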

Other observations

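Cryl1, a crystallin-like dehydrogenase gene, did not pass over the 5 populations (adjusted p = 0.0556). On its brightest probe set it was at 8.84 and 7.47 in mTEChi at 6 months, against 12.37 and 12.71 at 3 months, and at 8.05 and 6.10 in fibroblasts, against 10.39 and 11.44. Its next brightest probe set changed by 0.13 over the 5 populations.

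Of 9 histone genes 4 were higher and 0 lower at 6 months, 1 of them in all 5 populations, and the list's median was 0.67 in fibroblasts, against 0.23 over the 5 populations. Of 27 collagen and matrix genes 1 was higher and 4 were lower over the 5 populations, with a median of -1.18 in fibroblasts, against -0.18 over the 5 populations. Without the second 6-month fibroblast array, in which fibroblast markers averaged 9.39 against 11.85 in the first, the fibroblast median was -0.12. Of all genes tested over the 5 populations, 10.8% were higher and 8.4% lower.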
